A study of Mus musculus with 2 samples.

Results

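The renin-angiotensin system of the developing mouse kidney was described through 8 genes, Ren1, Agt, Ace, Agtr1a, Agtr1b, Agtr2, Mme and Enpep, out of 32285 genes listed. They were chosen by name, as the enzymes, the precursor and the receptors of this hormone system, and each was found once in both libraries. The data were single-nucleus RNA-seq of whole kidneys, with 1 library from the embryo at E18.5 and 1 from pups at P3 (postnatal day 3), each made from pooled male and female kidneys. The E18.5 kidneys had the genotype Mycf/f;Mycnf/f, floxed alleles of 2 Myc family genes with no Cre driver given, on a mixed background. The P3 kidneys were wild type C57BL/6J. Age, genotype, background, library and the release of the counting software therefore changed together and cannot be told apart, and no value could be set against a spread between replicates, because there were none. Intervals below are 95% intervals that cover counting error only.

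In this system the protease renin releases angiotensin I from angiotensinogen, angiotensin-converting enzyme (ACE) turns it into angiotensin II, and angiotensin II acts through type 1 and type 2 receptors on vessels, tubules and stroma. Neprilysin and aminopeptidase A, membrane peptidases of kidney epithelia, shorten the peptides. In the kidney renin is made by cells of the arteriolar wall, which are spread along the larger vessels before birth and retreat to the entry of the glomerulus as the kidney matures, and mice that lack components of the system develop abnormal vessels, medulla and papilla.

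After filtering, 21270 nuclei were kept at E18.5 (median 3132.5 unique molecular identifiers, UMIs, per nucleus) and 11765 at P3 (median 4534). Nuclei were clustered without the 8 genes, and clusters were named from markers outside the system, giving 13 named classes at each age, while 31.6% and 31.8% of nuclei stayed unnamed, most of them in clusters rich in called doublets or in 1 cluster of shallow nuclei at each age. Each level is the sum of UMIs of a gene in a class, given per 1000000 UMIs of that class (CPM). The libraries shared 67 cell barcodes, 0.315% of the E18.5 nuclei. Nuclei take up free RNA in droplet assays, so the ureteric epithelium-like class is given beside the levels as a floor. That this class makes no renin, angiotensinogen or receptor was assumed and not tested. A level at or below the floor is not told apart from background. Other classes were lower for some members, such as Agtr1a at P3, at 9.88 CPM in podocyte-like against 18.0 CPM in ureteric epithelium-like nuclei.

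The core promoters of 3 members are shown because these windows hold the letters TATAAA on the strand of the gene, the box that places the start of transcription at strongly regulated genes such as renin. The 250 bases before the RefSeq start are given on the strand of the gene (GRCm38.p6), with TATAAA in capitals.

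Ren1, chr1:133350424-133350673, plus strand: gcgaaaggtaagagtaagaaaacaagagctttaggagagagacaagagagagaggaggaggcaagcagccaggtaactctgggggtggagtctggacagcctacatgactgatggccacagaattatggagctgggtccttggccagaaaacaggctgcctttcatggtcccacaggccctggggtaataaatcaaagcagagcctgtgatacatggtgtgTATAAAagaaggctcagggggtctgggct

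Agt, chr8:124569707-124569956, minus strand: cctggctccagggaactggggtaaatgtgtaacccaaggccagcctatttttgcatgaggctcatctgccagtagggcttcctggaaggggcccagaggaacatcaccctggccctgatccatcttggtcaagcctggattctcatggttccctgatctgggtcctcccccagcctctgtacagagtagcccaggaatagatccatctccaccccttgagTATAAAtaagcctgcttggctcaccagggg

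Agtr1b, chr3:20367178-20367427, minus strand: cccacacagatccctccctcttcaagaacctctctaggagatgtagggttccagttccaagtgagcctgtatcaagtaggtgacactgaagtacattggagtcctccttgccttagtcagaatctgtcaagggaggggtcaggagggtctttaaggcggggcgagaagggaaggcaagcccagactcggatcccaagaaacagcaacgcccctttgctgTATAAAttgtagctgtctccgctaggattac

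The box began 29 bases before the RefSeq start of Ren1, 30 before that of Agt and 31 before that of Agtr1b. For Ren1 the GENCODE gene given below begins further upstream, at 133350510, so most of the window and the box lie inside the gene as annotated there. TATAAA was searched on both strands of the 300-base windows around 32851 starts and was in 12.4% of them. Among members, 7 of 8 had at least 1 window, and the windows of Ren1, Agt, Agtr1b and Enpep and 1 of 2 windows of Ace held it on either strand. The HNF1 half-site GTTAAT (6.43% of windows) and the RBPJ core TGGGAA (21.6%) were in no window of a member. These matches describe the letters of a short window and not binding.

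**Figure D1:**
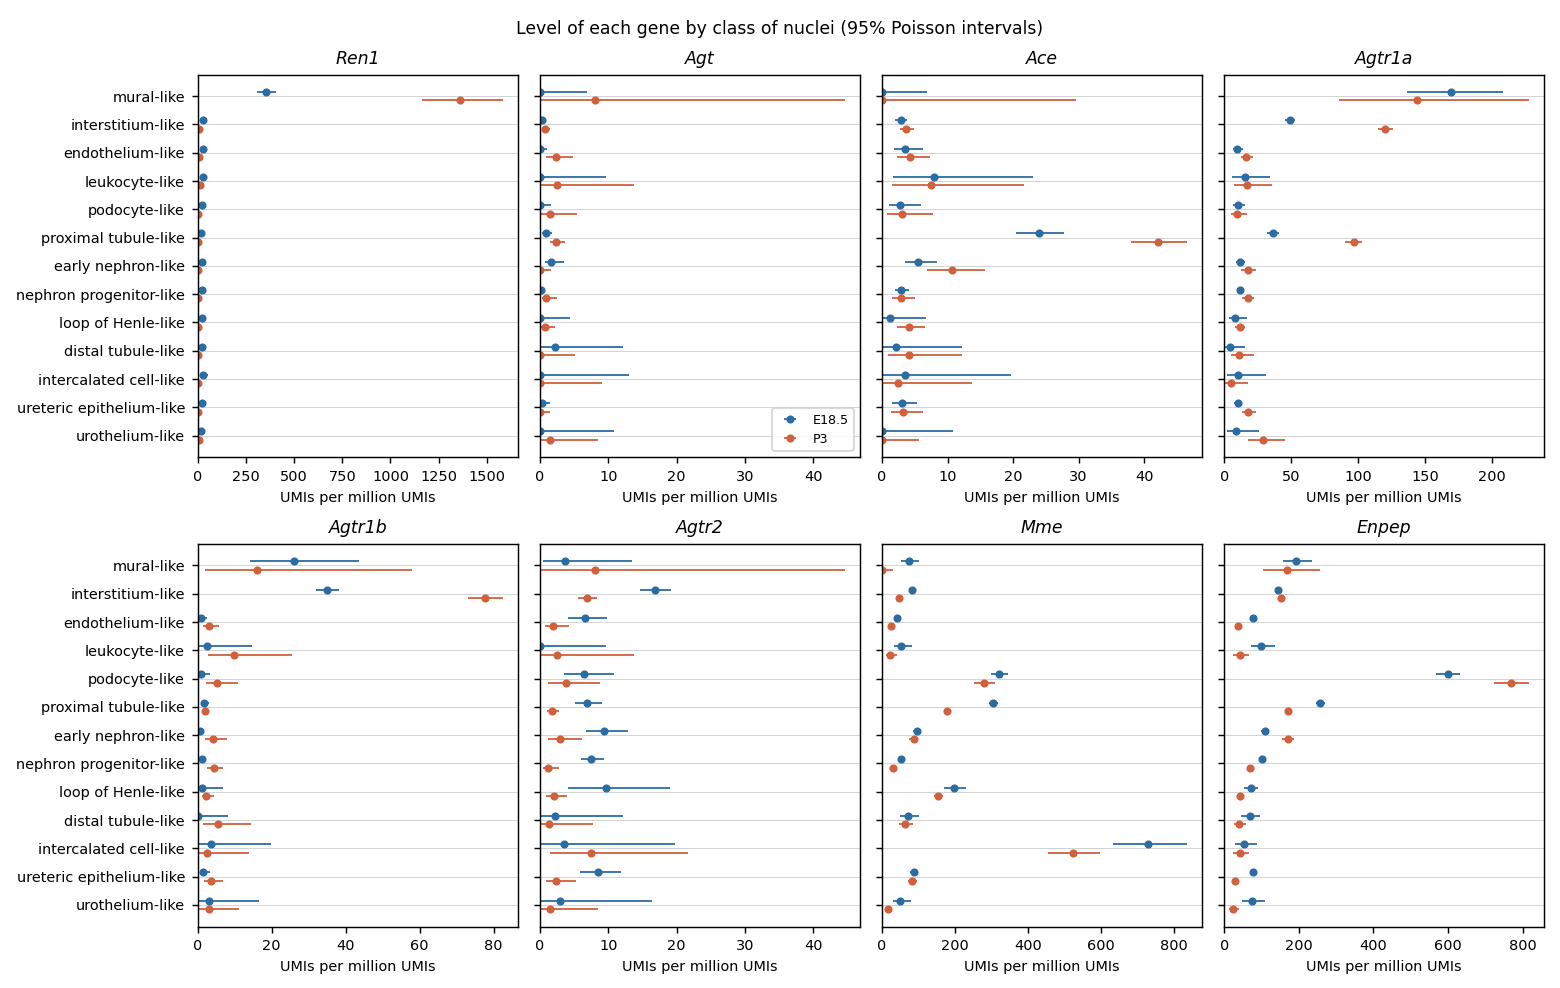
Level of each member (CPM, linear axis that differs between genes) in the 13 named classes at E18.5 (blue) and P3 (orange), with 95% Poisson intervals. Ren1 stood at 354 and 1362 in mural-like nuclei, and Enpep at 599 and 769 in podocyte-like nuclei, each far to the right of the other classes.

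Of the 8 members, 7 could be tested at each age for a difference between the class where they were highest and all other nuclei, and all 7 were at least 2 times higher there. The background share was high, 49.6% of all genes tested at E18.5 and 59.9% of those at P3, since each gene is read in its own highest class. The interval against the next class lay above 1 for 5 of the 7 at each age.

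Ren1 (chr1:133350510-133360325, plus strand, ENSMUSG00000070645), the gene of renin, was highest in mural-like nuclei, the class of vascular smooth muscle and pericyte markers. It was at 354 CPM (305–408; 190 UMIs in 170 nuclei) at E18.5 and at 1362 CPM (1165–1583; 170 UMIs in 32 nuclei) at P3. At E18.5 the next class, endothelium-like nuclei, was at 28.2 CPM, a ratio of 12.5 (9.75–16.2). At P3 the next class was leukocyte-like nuclei at 9.91 CPM (4 UMIs), a ratio of 137 (52.7–510). Urothelium-like nuclei followed at 7.64 CPM, a ratio of mural-like to urothelium-like nuclei of 178 (74.9–556), and all 5 of their UMIs came from 1 nucleus that was called a doublet. The 12 other classes lay in a narrow band at each age, from 16.6 to 28.2 CPM at E18.5 and from 0 to 9.91 CPM at P3, with the ureteric epithelium-like floor at 20.5 and 3.20 CPM. Ren1 in the other named classes was thus around the floor at both ages, and the floor itself was lower at P3. The mural-like class did not hold all nuclei with mural markers. In unnamed clusters, 3 of 12 mural markers were raised in 502 nuclei at E18.5 and 5 of 12 in 193 nuclei at P3. Levels of these clusters are not given here. In nuclei thinned to 1000 UMIs, a Ren1 UMI was found in 13.7% of mural-like nuclei against 2.26% of ureteric epithelium-like nuclei at E18.5, and in 34.4% against 0.466% at P3. The shallow unnamed clusters, with a median of 1251 UMIs at E18.5 and 971.5 at P3, were above this floor, at 64.2 CPM (56.3–73.0) and 41.1 CPM (32.6–51.3). Unthinned, the shares were 21.2% against 6.49% at E18.5 and 46.9% against 1.63% at P3, at median depths of 3013 and 3178 UMIs and of 3314.5 and 5047 UMIs.

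Most Ren1 transcripts within the mural-like class came from a few nuclei. At E18.5, 134 of the 170 mural-like nuclei had no Ren1 UMI, 18 had 1, and 6 had 10 or more. At P3, 17 of 32 had none and 6 had 10 or more. These 6 nuclei held 115 of the 190 mural-like UMIs at E18.5, and the 6 at P3 held 145 of 170. Across the whole library, 21 nuclei at E18.5 and 15 at P3 had at least 5 Ren1 UMIs, and they carried 13.3% and 49.3% of all Ren1 UMIs. Of these, 12 at E18.5 and 9 at P3 were mural-like, 7 and 3 were unnamed, and 5 and 3 were called doublets. The highest single nucleus had 28 Ren1 UMIs at E18.5 and 38 at P3. Mural-like nuclei held 9.85% of the Ren1 UMIs at E18.5 and 31.9% at P3, though only 0.695% and 0.178% of all UMIs, and unnamed nuclei held 33.6% and 34.7%. The mouse strain matters for this gene: C57BL/6 mice carry a single renin gene while some other strains carry Ren2 as well. Ren2 was not among the genes listed, so reads of a second renin gene in the mixed E18.5 background could be counted to Ren1, and this was not tested.

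**Figure D2:**
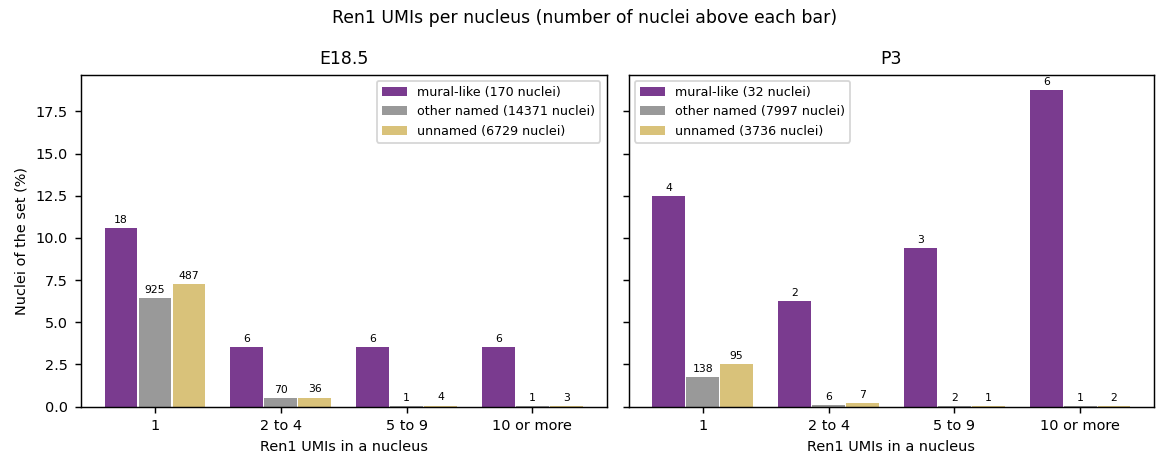
Percent of nuclei of each set (mural-like, all other named, unnamed) with 1, 2 to 4, 5 to 9 and 10 or more Ren1 UMIs, with the number of nuclei above each bar. At each age 6 mural-like nuclei had 10 or more Ren1 UMIs, against 1 of all other named nuclei.

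Splitting the interstitium-like and mural-like nuclei further gave 12 sub-clusters at E18.5 and 15 at P3, and Ren1 was concentrated in few of them. A pair of sub-clusters, 1 at each age, was matched after their values were seen by the leading genes that they shared, Ctnna3, Dgkb, Kcnab1 and Lrrtm3. Its level of Ren1 was 1104 CPM (872–1380; 20 nuclei) at E18.5 and 1215 CPM (1025–1431; 30 nuclei) at P3, a ratio of 1.10 (0.829–1.47). The interval includes 1, but it does not cover the spread between nuclei, and these were the sub-clusters highest in Ren1 at each age. Whether Ren1 in this subset was alike in both libraries was therefore not settled. The mural-like class as a whole differed in what it held: 66 of its E18.5 nuclei fell in a second sub-cluster led by Serpini1, Stac and Dkk2 and 82 in one led by Sema5b and Clstn2, whereas at P3 30 of 32 fell in the Kcnab1 sub-cluster. The E18.5 sub-cluster led by Dkk2 had Ren1 at 412 CPM (326–514; 78 UMIs in 14 of 67 nuclei). The P3 sub-cluster that shared its leading genes, Dkk2 and Pip5k1b among them, had 2 Ren1 UMIs in 18 nuclei (27.6 CPM), a ratio of 0.0670 (0.00797–0.25). None of those 18 nuclei came from the mural-like class, and 1 of 12 mural markers was raised there, against 5 at E18.5. A further P3 sub-cluster led by Trpc4 and Stac had Ren1 at 270 CPM (194–366), all 41 UMIs in 4 of its 38 nuclei. Only 3 interstitium-like nuclei at P3 had at least 2 Ren1 UMIs, 19 in all, so some of these 4 nuclei were mural-like. The P3 sub-cluster with the smooth muscle genes Actg2 and Myh11 as leading genes had 0 Ren1 UMIs in 24 nuclei, which by the exact Poisson interval allows up to 37.5 CPM.

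**Figure D3:**
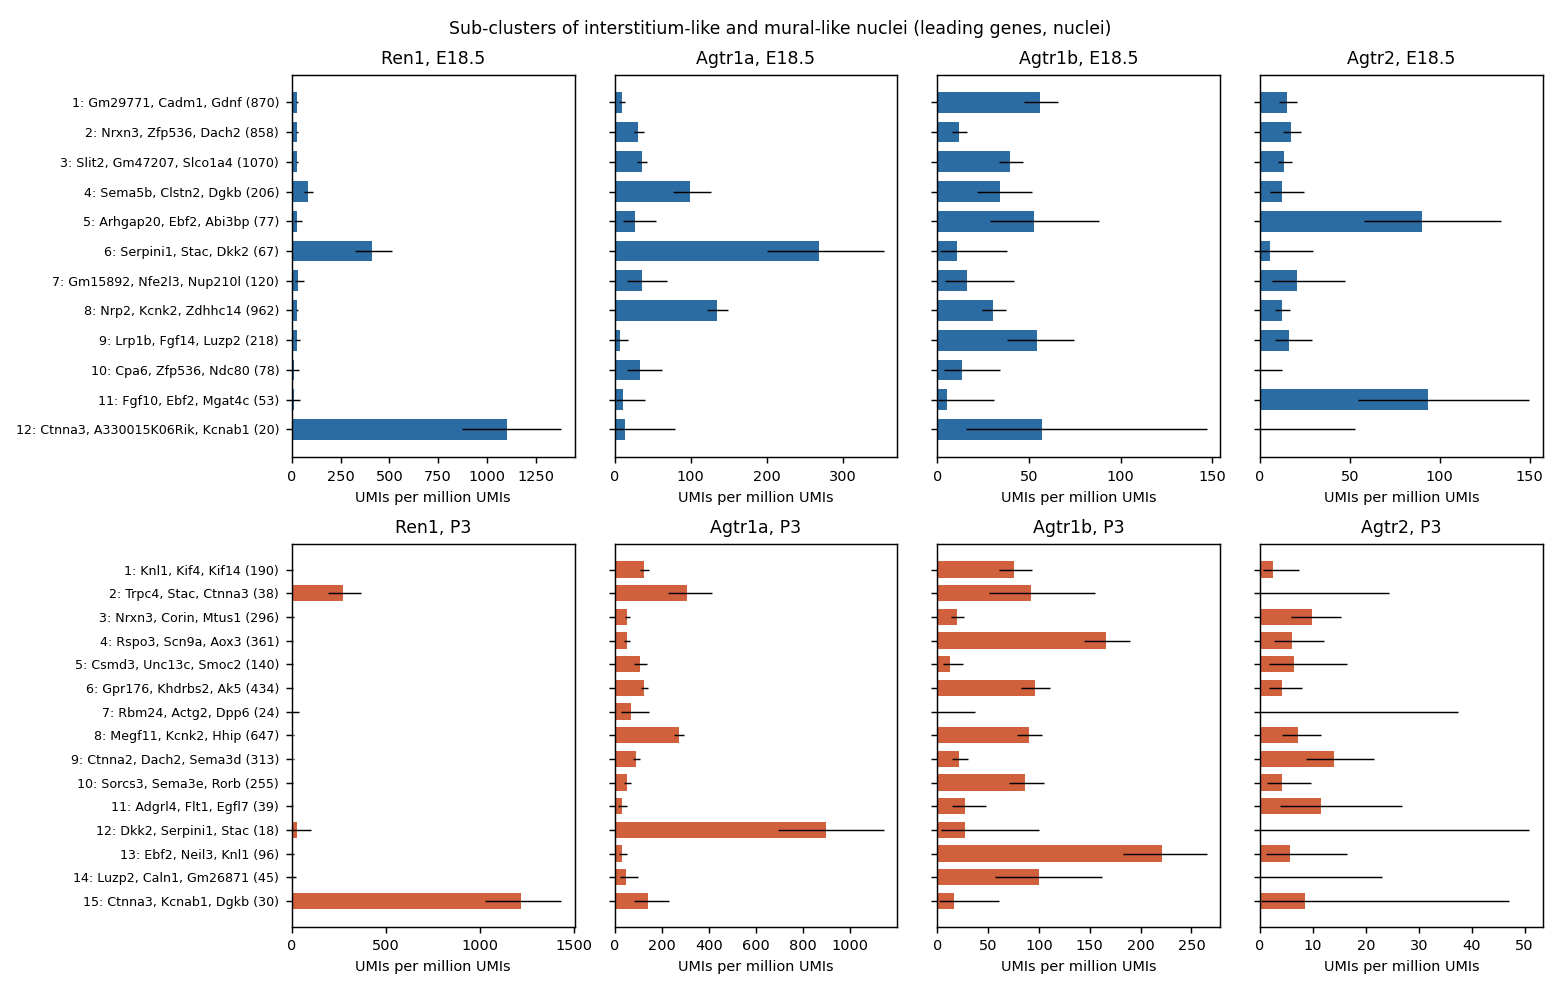
Levels of Ren1, Agtr1a, Agtr1b and Agtr2 (CPM, bars from 0 with 95% Poisson intervals) in the sub-clusters of interstitium-like and mural-like nuclei, each with 3 leading genes and its number of nuclei. Ren1 stood at 1104 and 1215 in the sub-cluster led by Ctnna3 at each age, while Agtr1a was highest in the sub-cluster led by Dkk2, at 269 and 897.

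Genes known for renin-producing cells, a list of 14, were compared between mural-like nuclei and all other nuclei. At E18.5, 5 of 12 tested were at least 2 times higher, against 7.12% of all genes, and at P3 8 of 14, against 14.1%. The P3 count includes Gja4, which had 1 UMI and a ratio of 11.2 (0.278–65.3). These 14 genes were not left out of the clustering, so they could take part in forming the class in which they were counted. Akr1b7, an aldo-keto reductase used as a marker of renin cells, was 12 times higher (6.60–20.4; 15 UMIs) at E18.5 and 183 times higher (103–313; 19 UMIs) at P3. Gja5, the connexin 40 gene, was 9.97 and 52.7 times higher. Ebf1, a transcription factor of the stromal and vascular lineage, was at 6156 and 5447 CPM, 9.13 and 6.12 times the level of the other nuclei. Adcy5, an adenylyl cyclase of the cyclic AMP pathway that drives renin release, was 3.97 and 5.21 times higher. Adrb1, the β1-adrenergic receptor, was 31.4 times higher at P3 on 7 UMIs and had 2 UMIs at E18.5. The interval lay below 1 for 3 of the 14 at E18.5 and for 1 at P3. These were the transcription factor Nfat5, at 0.67 and 0.52 of the level in the other nuclei, and at E18.5 also Gja1, the connexin 43 gene, at 0.41, and Foxd1, a transcription factor of the stromal progenitor, at 0.30. In mural-like nuclei 11 of 12 mural markers, 0 of 10 endothelium markers and 0 of 11 interstitium markers were at least 2 times higher at each age, which the naming of the class from these markers largely fixes.

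Agt (chr8:124556534-124569706, minus strand, ENSMUSG00000031980), the gene of angiotensinogen, the only known substrate of renin, was close to absent from both libraries. It had 33 UMIs in 32 nuclei at E18.5 and 92 UMIs in 84 nuclei at P3, levels of 0.427 CPM (0.294–0.599) and 1.31 CPM (1.06–1.61). At E18.5 the early nephron-like class held 7 UMIs and the proximal tubule-like class 6, and no named class reached the 10 UMIs set for an order of classes. At P3 proximal tubule-like nuclei were at 2.41 CPM (1.51–3.64; 22 UMIs) and endothelium-like nuclei at 2.32 CPM (7 UMIs), a ratio of 1.04 (0.428–2.88). None of the 12 pairs of neighbouring classes differed beyond its counting error at either age. Within the proximal tubule-like nuclei the UMIs were uneven. The sub-cluster led by Aadat and Serpina6 had 4 UMIs at E18.5 (7.06 CPM) and 10 at P3 (6.32 CPM). At P3 the highest level was 7.33 CPM on 2 UMIs, in 50 nuclei led by Galntl6 and Col25a1, and a sub-cluster of 41 nuclei led by Ect2 was at 5.77 CPM, also on 2 UMIs. At P3 the Aadat sub-cluster was 13.2 times (1.87–572) the sub-cluster led by Slc5a2, the glucose transporter of the early proximal tubule, which had 1 UMI.

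Ace (chr11:105967945-105989964, plus strand, ENSMUSG00000020681), the converting enzyme, which is anchored in the brush border of the proximal tubule and on endothelium, was highest in proximal tubule-like nuclei. Its level there was 23.9 CPM (20.5–27.8; 170 UMIs) at E18.5 and 42.1 CPM (38.0–46.5; 385 UMIs) at P3. Among classes with at least 5 UMIs, the next was early nephron-like at both ages, at 5.55 and 10.6 CPM, giving ratios of 4.31 (2.78–6.99) and 3.96 (2.64–6.20). The E18.5 ratio was 11 with Leiden clusters, and the P3 ratio was 1.88 with thinned counts. Leukocyte-like nuclei lay between at E18.5, at 7.88 CPM on 3 UMIs, a ratio of proximal tubule-like to leukocyte-like nuclei of 3.04 (1.02–14.9). The ureteric epithelium-like floor was 3.07 and 3.20 CPM, and the shallow unnamed clusters were above it, at 10.8 and 17.7 CPM. Proximal tubule-like nuclei held 34.5% and 43.0% of all Ace UMIs, and 44.6% and 67.0% when called doublets were left out. In endothelium-like nuclei Ace was near the floor at both ages, as the plot of levels by class shows.

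Within the proximal tubule-like nuclei, Ace differed between sub-clusters by several times. At E18.5 it ran from 6.99 to 45.6 CPM over 7 sub-clusters, and at P3 from 9.11 to 88.4 CPM over 7. In the sub-cluster led by Aadat, a kynurenine aminotransferase, and Serpina6, Ace was at 38.8 CPM at E18.5 and 88.4 CPM at P3. In the sub-cluster led by the sodium-coupled transporters Slc5a2 and Slc5a12 it was at 14.3 and 9.11 CPM. The Aadat sub-cluster was thus 2.71 times (1.26–6.20) the Slc5a2 sub-cluster at E18.5 and 9.71 times (5.99–16.6) at P3. Mme moved the same way, at 2.40 and 1.88 times, whereas Agtr1a did not, at 1.0 and 0.503 times (0.397–0.633 at P3).

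**Figure D4:**
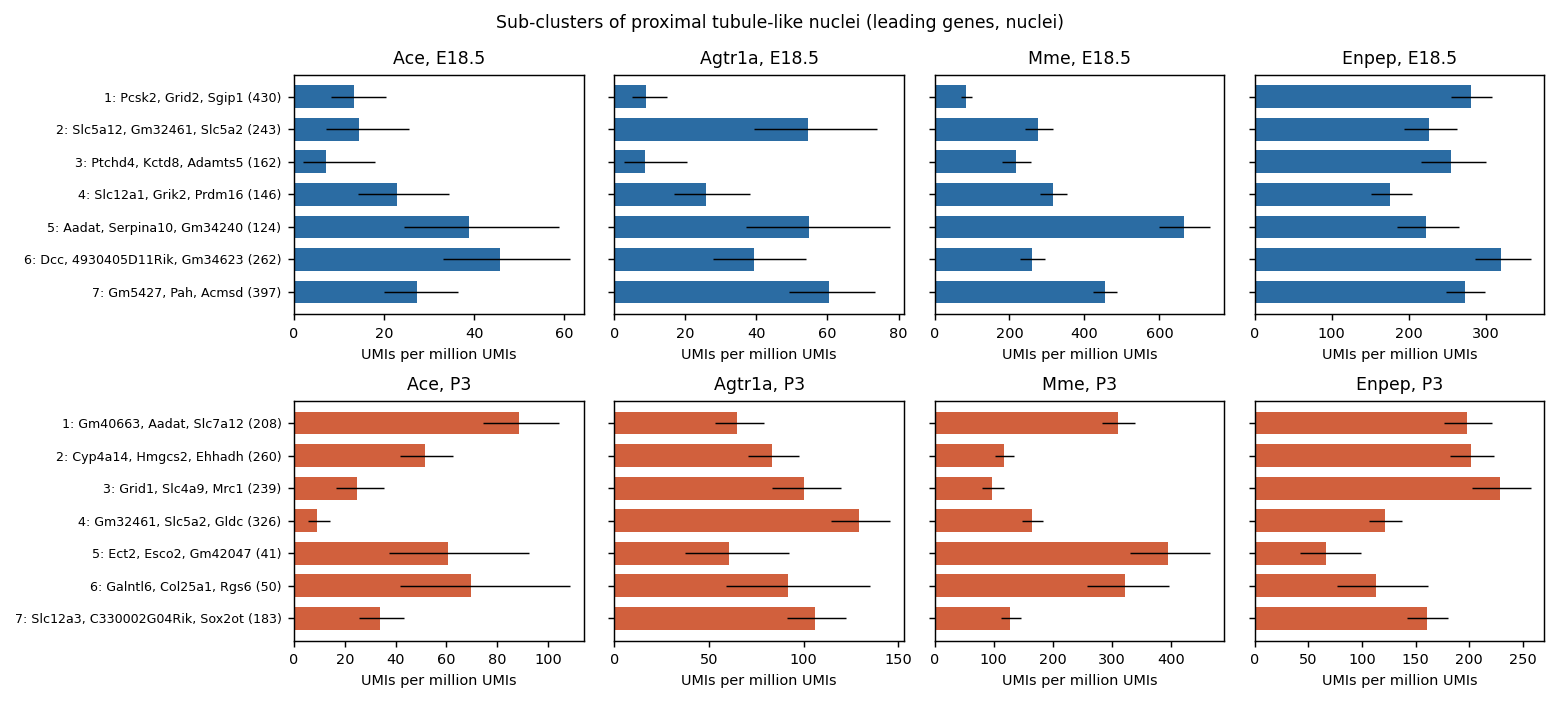
Levels of Ace, Agtr1a, Mme and Enpep (CPM, bars from 0 with 95% Poisson intervals) in 7 sub-clusters of proximal tubule-like nuclei at each age, each with 3 leading genes and its number of nuclei. At P3 Ace was highest (88.4) in the Aadat sub-cluster and lowest (9.11) in the Slc5a2 sub-cluster, where Agtr1a was highest (129).

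Agtr1a (chr13:30336441-30382867, plus strand, ENSMUSG00000049115), the main type 1 angiotensin receptor of rodents, was found in mural-like, interstitium-like and proximal tubule-like nuclei. Its levels at E18.5 were 169 CPM (136–208; 91 UMIs) in mural-like, 48.8 CPM (45.2–52.7; 674 UMIs) in interstitium-like and 36.2 CPM (31.9–40.9; 257 UMIs) in proximal tubule-like nuclei. At P3 they were 144 CPM (85.5–228; 18 UMIs), 120 CPM (115–126; 1630 UMIs) and 96.7 CPM (90.4–103; 884 UMIs). The ureteric epithelium-like floor was 9.99 and 18.0 CPM, so all 3 classes stood above it at both ages. The shallow unnamed clusters were also above this floor, at 23.4 and 69.2 CPM, and below the 3 classes. Mural-like nuclei were 3.47 times (2.76–4.32) interstitium-like nuclei at E18.5 and 1.2 times (0.708–1.90) at P3, where the interval included 1. At P3 that ratio was 3.07 with 20 neighbors and 2.14 with thinned counts. Interstitium-like nuclei held 34.6% and 36.7% of its UMIs and proximal tubule-like nuclei 13.2% and 19.9%.

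Agtr1a divided the stroma more sharply than the broad class did. In a sub-cluster led by Kcnk2, a potassium channel gene, which shared Prlr and other leading genes between ages, it was at 134 CPM (962 nuclei) at E18.5 and 271 CPM (647 nuclei) at P3. In the sub-cluster that shared Gria1 and Cadm1 it was at 9.32 CPM (870 nuclei) and 52.0 CPM (361 nuclei). The ratio of the Kcnk2 to the Gria1 sub-cluster was 14.4 (9.62–22.6) at E18.5 and 5.22 (4.06–6.80) at P3. The Dkk2 sub-cluster was the highest at both ages, at 269 CPM (200–354) at E18.5 and 897 CPM (692–1143; 65 UMIs in 15 of 18 nuclei) at P3. Against it, the Kcnab1 sub-cluster that carried the most Ren1 had 1 Agtr1a UMI at E18.5 (14.3 CPM) and 17 at P3 (143 CPM). The Dkk2 sub-cluster was thus 18.8 times (3.22–756) and 6.25 times (3.62–11.4) the Kcnab1 sub-cluster in Agtr1a, while in Ren1 it was 0.373 times (0.269–0.518) and 0.0227 times (0.00272–0.0835). In the tubule, the E18.5 sub-cluster led by Pcsk2, with the Notch ligand gene Dll1 among its leading genes, had Agtr1a at 8.74 CPM, around the floor, and the Slc5a2 sub-cluster was at 54.6 CPM.

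Agtr1b (chr3:20314473-20367177, minus strand, ENSMUSG00000054988), the second type 1 receptor gene, was almost limited in level to stroma. Interstitium-like nuclei were at 35.0 CPM (32.0–38.3; 483 UMIs) at E18.5 and 77.6 CPM (73.0–82.5; 1051 UMIs) at P3, and held 54.3% and 60.4% of its UMIs. The floor was 1.54 and 3.6 CPM. At E18.5 mural-like nuclei were next at 26.1 CPM (14 UMIs), a ratio of 1.34 (0.793–2.48). At P3 podocyte-like nuclei were next among classes with at least 5 UMIs, at 5.32 CPM (7 UMIs), a ratio of 14.6 (7.06–36.4), which was 4.64 with Leiden clusters. Of the classes under that limit, mural-like nuclei were the highest, at 16.0 CPM on 2 UMIs. The ratio of interstitium-like to mural-like nuclei was 4.85 (1.34–40.1). In proximal tubule-like nuclei Agtr1b was at or near the floor, unlike Agtr1a. Between the Kcnk2 and Gria1 sub-clusters the 2 receptor genes differed in opposite directions. The Kcnk2 sub-cluster had 0.541 times (0.409–0.710) the Agtr1b of the Gria1 sub-cluster at E18.5 and 0.542 times (0.446–0.657) at P3, where for Agtr1a these ratios were above 5. Agtr1b was not low in the Kcnk2 sub-cluster, at 30.2 and 89.9 CPM, against medians of 32.2 and 75.7 CPM over all interstitium-like and mural-like sub-clusters. The highest Agtr1b at P3 was 221 CPM (183–265) in 96 nuclei led by Ebf2 and mitotic genes such as Neil3, Knl1 and Ect2.

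Agtr2 (chrX:21484544-21489164, plus strand, ENSMUSG00000068122), the type 2 receptor, a gene of fetal mesenchyme, was low. Interstitium-like nuclei were at 16.8 CPM (14.7–19.1; 232 UMIs) at E18.5 and 6.87 CPM (5.55–8.42; 93 UMIs) at P3, against a floor of 8.45 and 2.40 CPM. The shallow unnamed clusters, which belong to no class, were no lower. They were at 20.7 CPM (16.3–25.9) on 75 UMIs at E18.5 and 10.4 CPM (6.36–16.1) on 20 UMIs at P3. Among classes with at least 5 UMIs, the next were loop of Henle-like at E18.5, a ratio of 1.74 (0.869–4.08), and podocyte-like at P3, a ratio of 1.81 (0.748–5.70), so the highest class was not separated from the next one, which rested on 8 and 5 UMIs. Over all other nuclei the ratio was 2.19 (1.87–2.57) at E18.5 and 2.46 (1.88–3.19) at P3. A small E18.5 interstitium-like cluster of 133 nuclei, led by Ebf2 and Col6a6 with Tnxb and Dlk1, stood apart at 90.9 CPM (65.5–123; 42 UMIs), while the other interstitium-like clusters were at 13.9 and 14.3 CPM. Among sub-clusters, those led by Ebf2 with Abi3bp and by Ebf2 with Fgf10 were the highest, at 90.1 CPM (24 UMIs) and 93.6 CPM (17 UMIs). At P3 an unnamed cluster of 69 nuclei led by Ebf2, with the adipocyte genes Pparg and Plin1, had the highest level of any P3 cluster with at least 5 UMIs, 20.1 CPM (8.09–41.5; 7 UMIs).

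Mme (chr3:63241537-63386030, plus strand, ENSMUSG00000027820), the gene of neprilysin, which degrades angiotensins, natriuretic peptides and other small peptides, was highest in intercalated cell-like nuclei. Its level there was 730 CPM (634–837; 206 UMIs in 78 nuclei) at E18.5 and 524 CPM (456–599; 212 UMIs in 71 nuclei) at P3. Podocyte-like nuclei followed at 321 CPM (298–346) and 280 CPM (253–311), giving ratios of 2.27 (1.94–2.66) and 1.87 (1.57–2.22). Proximal tubule-like nuclei were at 305 CPM (293–319) and 178 CPM (170–187), and loop of Henle-like nuclei at 198 CPM (169–231) and 154 CPM (142–167). The ureteric epithelium-like level was 86.6 and 82.8 CPM, and endothelium-like nuclei were the lowest at E18.5, at 41.6 CPM, and at 23.5 CPM at P3. With 1000 UMIs per nucleus, 46.2% of intercalated cell-like nuclei had an Mme UMI at E18.5 and 36.6% at P3, against 4.86% and 2.52% of endothelium-like nuclei. The proximal tubule-like class still held more of the transcripts, 23.8% and 24.0% of all Mme UMIs, for being far larger. Within it, the Aadat sub-cluster stood at 665 CPM at E18.5 and 311 CPM at P3. In the stroma Mme was higher in the Gria1 sub-cluster, at 139 and 125 CPM, than in the Kcnk2 sub-cluster, at 53.7 and 35.2 CPM, a ratio of the latter to the former of 0.386 and 0.281.

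Enpep (chr3:129269175-129332720, minus strand, ENSMUSG00000028024), the gene of aminopeptidase A, which cleaves the first residue of angiotensin II and is a surface protein of podocytes and proximal tubules, was highest in podocyte-like nuclei. It stood there at 599 CPM (567–632; 1301 UMIs) at E18.5 and 769 CPM (722–818; 1012 UMIs) at P3. The next class was proximal tubule-like at E18.5, at 257 CPM, a ratio of 2.33 (2.17–2.50), and early nephron-like at P3, at 171 CPM, a ratio of 4.50 (4.01–5.07), which was 7.33 with 20 neighbors. Ureteric epithelium-like nuclei, the class given as a floor, were at 77.4 and 30.0 CPM, and endothelium-like nuclei at 77.5 and 36.8 CPM. After thinning to 1000 UMIs, 45.7% and 51.8% of podocyte-like nuclei had an Enpep UMI, against 7.52% and 3.78% of endothelium-like nuclei. The P3 podocyte-like nuclei came from 2 clusters that differed, 132 nuclei at 1145 CPM and 119 nuclei, of which 26.1% were called doublets, at 469 CPM. Enpep was also found in stroma, with 144 and 152 CPM in interstitium-like nuclei and 194 and 168 CPM in mural-like nuclei. The shallow unnamed clusters were above the interstitium-like level at both ages, at 247 CPM (231–264) and 165 CPM (147–184). Interstitium-like nuclei held 16.2% and 22.3% of the Enpep UMIs.

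The ages were compared for classes with at least 100 nuclei at each. In proximal tubule-like nuclei 6 members could be tested. At P3, 1 was at least 2 times higher, against 6.01% of all genes, and 2 were at least 2 times lower, against 18.7%. Agtr1a was 2.67 times (2.32–3.08) its E18.5 level and Ace 1.76 times (1.47–2.12), while Mme was at 0.58 times and Enpep at 0.66 times. Ren1, at 0.20 times, and Agtr2, at 0.25 times, were the lower pair, and both were around the floor there. The E18.5 class held a cluster of 1253 nuclei led by Grid1, Stxbp5l and Cdh6, genes that at P3 led a cluster of 209 nuclei named early nephron-like, so the class did not hold the same nuclei at both ages. In the clusters led by Aadat and Slc7a12 (511 nuclei at E18.5 and 294 at P3), paired after their values were seen, Ace was 2.87 times (2.15–3.87) its E18.5 level, Agtr1a 1.08 times (0.84–1.37), Mme 0.66 times and Enpep 0.63 times. The ratio of Agtr1a thus depended on the nuclei taken, being 2.37 (1.71–3.36) in the matched Slc5a2 sub-clusters. That of Ace did too, since Ace was not higher at P3 in those sub-clusters. It was there at 14.3 CPM (11 UMIs) at E18.5 and 9.11 CPM (19 UMIs) at P3. The ratio of Mme was below 1 in each of these comparisons.

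In interstitium-like nuclei 6 members could be tested, of which 2 were at least 2 times higher at P3, against 2.99% of all genes, and 2 at least 2 times lower, against 13.2%. Both type 1 receptor genes were the higher pair, Agtr1a at 2.46 times (2.25–2.70) and Agtr1b at 2.22 times (1.99–2.48). These 2 ratios moved with the clustering: with 20 neighbors they were 13.9 and 1.32, and with Leiden clusters 8.75 and 1.05. With 20 neighbors the E18.5 class held 1133 nuclei in place of 4429. In the matched sub-clusters Agtr1a was 2.02 times (1.77–2.30) its E18.5 level in the Kcnk2 pair and 5.58 times (3.48–9.22) in the Gria1 pair, and Agtr1b was 2.97 times in both pairs. Agtr2 was at 0.41 times (0.32–0.52), while its ureteric epithelium-like floor also fell, from 8.45 to 2.40 CPM. The part of the floor in the Agtr2 ratio was not tested. Ren1 was at 0.23 times in nuclei where it was around the floor. Mme was at 0.56 times (0.51–0.62), and at 0.363 with 20 neighbors and 0.253 with Leiden clusters. Its interstitium-like levels, 81.3 and 45.8 CPM, were below the ureteric epithelium-like levels of 86.6 and 82.8 CPM. They were above the endothelium-like levels of 41.6 and 23.5 CPM. Enpep was at 1.06 times (1.0–1.13), and at 1.81 with Leiden clusters. The median of all genes tested was 0.89.

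In podocyte-like nuclei 6 members could be tested, of which 1 was at least 2 times higher at P3, against 6.68% of all genes, and 1 at least 2 times lower, against 13.6%. The higher one, Agtr1b, rested on 2 and 7 UMIs and was at 1.25 times with doublet-rich clusters named, and the lower one, Ren1, was at 0.13 times in nuclei at the floor. Enpep, the gene that was highest in this class, was 1.28 times (1.18–1.39) its E18.5 level, and Mme 0.87 times (0.77–0.99). Over all 10 classes large enough, the interval of the Agtr1a ratio lay above 1 in 5 and below 1 in 0, with ratios of 0.933 to 2.67. Outside proximal tubule-like and interstitium-like nuclei, Agtr1a in these classes was around or below the floor, which itself went from 9.99 to 18.0 CPM. Endothelium-like nuclei, for example, were at 9.80 and 16.6 CPM. The interval of the Mme ratio lay below 1 in 7 and above 1 in 0, with ratios of 0.424 to 0.956. Agtr2 could be tested in 8 classes and its interval lay below 1 in 7, and that of Ren1 lay below 1 in 9 of 10, at levels around the floor.

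**Figure D5:**
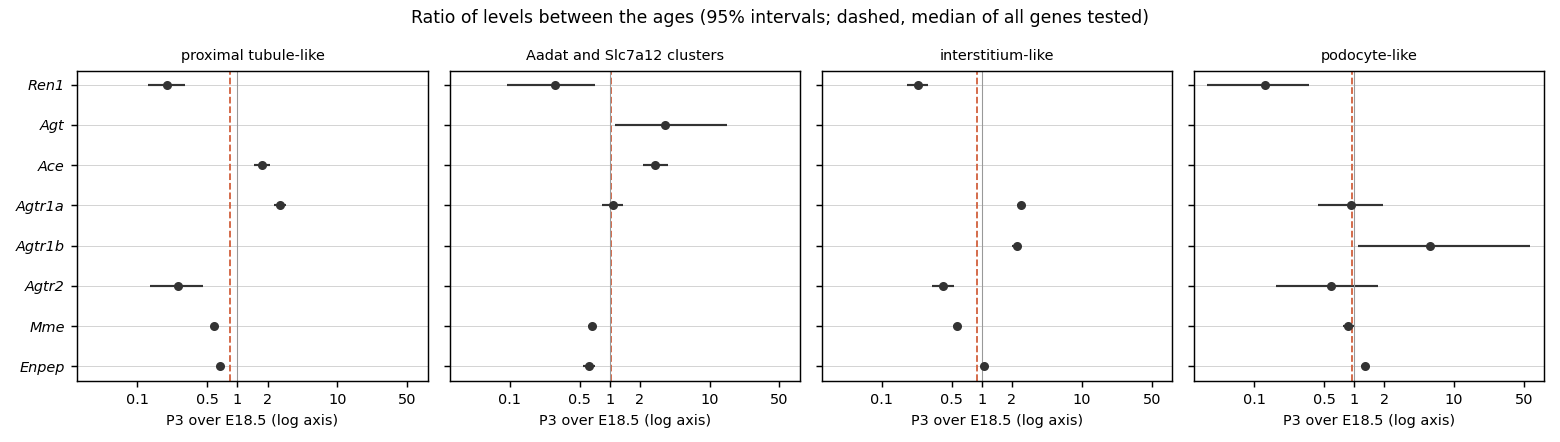
Ratio of each member's level at P3 to that at E18.5 (log axis) with 95% intervals, in 3 classes and in the clusters led by Aadat and Slc7a12; the dashed line is the median ratio of all genes tested. Agtr1a stood at 2.67 in proximal tubule-like and 2.46 in interstitium-like nuclei but at 1.08 in the Aadat and Slc7a12 clusters.

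The other genes of the system, a list of 21 of which 20 were found (all but Ren2), were compared in the same 3 classes. In proximal tubule-like nuclei 0 of 12 tested were at least 2 times higher at P3 and 1 lower, in interstitium-like nuclei 0 and 1 of 13, and in podocyte-like nuclei 0 and 0 of 12. In the same order, the shares of all genes were 6.01% higher and 18.7% lower, 2.99% and 13.2%, and 6.68% and 13.6%. The lower genes of the list were Ctsd, the cathepsin D gene, at 0.48 times in proximal tubule-like nuclei, and Mas1, the receptor of angiotensin 1-7, at 0.47 times (0.33–0.65; 117 and 54 UMIs) in interstitium-like nuclei. Anpep, the gene of aminopeptidase N, was highest in proximal tubule-like nuclei, at 161 and 83.4 CPM, 3.47 and 2.25 times the next class. Atp6ap2, the prorenin receptor and a proton pump subunit, was highest in intercalated cell-like nuclei, at 145 and 158 CPM, 1.58 times (0.982–2.55) and 2.45 times (1.53–4.03) leukocyte-like nuclei. Klk1, the tissue kallikrein gene, was highest in distal tubule-like nuclei at P3, at 30.7 CPM, 3.77 times (2.09–6.69) loop of Henle-like nuclei. The mast cell proteases that can form angiotensin II were almost undetected, with 6 and 16 UMIs of Cma1 and 0 and 4 of Ctsg.

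Pairs of members were also looked for in the same nuclei of a class, against the number that independent detection gives. Over 24 pairs in nuclei thinned to 1000 UMIs, the interval of observed over expected nuclei lay above 1 for 1 pair and below 1 for 0. That pair was Agtr1a and Mme in E18.5 proximal tubule-like nuclei, at 1.70 (1.08–2.55), and at P3 it was 1.32 (0.84–1.99). At 2000 UMIs per nucleus the same pair was at 1.30 (0.966–1.72) and 1.04 (0.791–1.35), so the call did not hold. At that depth Agtr1b and Mme in P3 interstitium-like nuclei were at 1.43 (1.01–1.99), and Ren1 and Agtr1a in E18.5 mural-like nuclei at 0.287 (0.0348–1.04), or at 0.155 (0.00392–0.863; 1 nucleus with both) without called doublets. The low value of Ren1 and Agtr1a did not hold at 1000 UMIs, at 0.877 (0.181–2.56) with 3 nuclei holding both. In P3 mural-like nuclei this pair was at 1.45 (0.396–3.72) at 1000 UMIs and 0.933 (0.113–3.37) at 2000. At 1000 UMIs, Agtr1a and Agtr1b in interstitium-like nuclei were at 0.64 (0.17–1.63) and 0.83 (0.48–1.33). Mme and Enpep in podocyte-like nuclei were at 1.13 and 1.17. The thinning leaves few nuclei with both genes, so these intervals are wide.

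The genes most like each member were sought by the Pearson correlation of log2(CPM + 10) across the 26 clusters at E18.5 and the 31 at P3, ranked by the lower of the 2 values among 12283 genes. Clusters of a library share its depth and free RNA, so the values are descriptions. For Ren1 they were Rergl (0.88 and 0.96), Akr1b7 (0.86 and 0.94) and Gm42679. For Ace they were Napsa (0.87 and 0.89), Mep1a, the gene of a brush border metalloprotease, and Slc27a2, a fatty acid transporter of the proximal tubule. For Agtr1a they were Trpc1 (0.87 and 0.84) and Sept7 (0.71 and 0.67) among others, and for Agtr1b Gria4 (0.90 and 0.91), 8430419K02Rik and the collagen gene Col8a1. Agtr2 was most like Dcn (0.83 and 0.80), the gene of decorin, with Thbs3 and Postn. Mme was most like Dpp4 (0.72 and 0.72), another membrane peptidase, with Pard6b and Lgr4. Enpep was most like Magi2 (0.80 and 0.78), a scaffold gene of the slit diaphragm, with Gm13936 and Gabrb1. The clusters gave Agt little pattern, and its most alike genes, Serpina6, Slc51b and Cisd2, reached no more than 0.67 in either age.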

How the data were processed

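Nuclei were isolated from whole kidneys and sequenced with 10x 3′ chemistry. The authors deposited 1 matrix of UMI counts per gene and nucleus for each age. The file headers name Cell Ranger 7.0.0 for E18.5 and 5.0.1 for P3, whereas the submitters' processing notes name 5.0.1 and mm10 for both. The annotation release and the counting of introns are not given in the sources used here. The labels give a mixed background for E18.5 and C57BL/6J for P3, while the methods of the study give mixed for both.

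Barcodes 3 median absolute deviations low in log UMIs or genes, or high in mitochondrial share (by at least 0.5 percentage points), were removed, which left 21270 of 21600 and 11765 of 12216. Doublets called by Scrublet in scanpy 1.11.5 (16.4% and 16.8%) were kept. Counts were normalized in scran 1.30.0 (R 4.3.3), and the first 50 principal components of 2000 variable genes, with members and pathway genes left out, were clustered by Walktrap on a graph of 10 neighbors. A cluster was named where at least 3 markers of a class were raised. Clusters over 50% doublets, or with hemoglobin raised without Alas2, or with under 50% of mural markers raised where mural led, were left unnamed, and these exclusions were set with the clusters in view. The interstitium-like, mural-like and proximal tubule-like nuclei were clustered again.

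UMIs were summed per class. Levels have exact Poisson, ratios exact conditional binomial and shares exact Clopper-Pearson 95% intervals (scipy 1.17.1), which cover counting error only. With 1 library per age no test between ages was run. Ratios were tested for genes with at least 5 CPM on either side, and a class entered an order of classes with at least 10 UMIs in the highest and 5 in the next. Intervals were checked on simulated Poisson counts, which hold no spread between nuclei, so the check covers counting error only. Gene positions are from the GRCm38 annotation in GENCODE M21 and promoter windows from RefSeq, GRCm38.p6. The members and lists were chosen with earlier results of these data known. Named genes are the members, fixed lists of markers, pathway genes and renin-cell genes, and the 3 genes most like each member, of which 1 pathway gene is not reported here; leading genes of clusters and genes called out in sub-clusters were named after their values were seen. Alternatives were other clusterings, thinning, size factors, doublet removal and depth or level filters, and 2 more (doublet-rich clusters named; clusters and sub-clusters matched between ages by leading genes) were chosen after seeing the data.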

Additional observations from a re-analysis of the deposited data

Results flagged for a closer look

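Enpep, the gene of aminopeptidase A, stood out because its ratio between ages went in opposite directions in different classes of nuclei. It was 1.56 times its E18.5 level at P3 in early nephron-like nuclei and 1.28 times in podocyte-like nuclei, with intervals above 1. In 6 classes it was between 0.388 and 0.696 times with intervals below 1. The lowest ratio, 0.388, was that of the ureteric epithelium-like floor itself, which went from 77.4 to 30.0 CPM. Endothelium-like nuclei lay close to that floor, at 77.5 and 36.8 CPM. The part of the floor in the ratios below 1 was not tested. With 1 library at each age, the difference between the classes was not tested. The early nephron-like class at P3 held a cluster of 209 nuclei whose leading genes, Grid1, Stxbp5l and Cdh6, also led a cluster named proximal tubule-like in the E18.5 library, and the part of this in the ratio of 1.56 was not tested.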

How the results depend on the processing

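No paired analysis was possible because each age has 1 library, and no replicate could be left out. Of 165 alternatives to the values that answer a comparison, 138 stayed within the interval or count and 27 moved. Among these 165, 0 were counted as changing direction, although the ratio of Agt given below crossed 1. Of 806 alternatives to other values 689 stayed, 115 moved and 2 were counted as changing direction. Of the 115 moved ones 62 came from removing called doublets. Mural-like nuclei formed no cluster of their own with Leiden clustering at either age or with 20 neighbors at E18.5, so their values were not obtained there. With Leiden clustering the ratio of the highest to the next class was 11 for Ace and 2.16 for Enpep at E18.5 and 4.64 for Agtr1b at P3. With 20 neighbors it was 2.71 for Enpep at E18.5, and at P3 7.33 for Enpep, 1.55 for Mme and 3.07 for Agtr1a. Thinned to 1000 UMIs at P3 it was 1.88 for Ace, 3.5 for Enpep, 2.14 for Agtr1a and 0.405 for Agt. For Agt this ratio was 1.04 without thinning, with an interval that included 1 (0.428–2.88). With scran size factors it was 2.56 and 5.55 for Enpep at E18.5 and P3, and with doublet-rich clusters named 1.92 for Enpep and 2.78 for Mme at E18.5. The members at least 2 times higher at P3 in proximal tubule-like nuclei were 2 when divided by the median ratio, and the members at least 2 times lower were 0 with a minimum of 20 CPM. In interstitium-like nuclei the higher members were 1 with Leiden clustering and 1 with 20 neighbors, and the lower 1 with a minimum of 20 CPM. In podocyte-like nuclei the higher members were 2 with Leiden clustering and 0 with thinning, with doublet-rich clusters named or with 20 CPM, and the lower were 2 without doublets, 3 with thinning and 2 with doublet-rich clusters named. With 20 CPM, 1289 of 8657 genes were lower in proximal tubule-like and 1041 of 8513 in interstitium-like nuclei, and 369 of 8029 were higher in podocyte-like nuclei. For the other settings no share over all genes is given here, so these counts are not read against background. The 2 values counted as changing direction were Agt in proximal tubule-like against all other nuclei at P3, 0.973 with thinning, and Mme at P3 over E18.5 in loop of Henle-like nuclei, 1.71 with Leiden clustering. The cause was not tested. For Agt and Agtr2 neighboring classes could not be put in order, since none of the 12 pairs differed beyond counting error at either age. The part of depth in this was not tested. Classes further apart in rank could still differ. Agtr2 at E18.5 was at 16.8 CPM (14.7–19.1) in interstitium-like nuclei against 7.54 CPM (6.01–9.33) in nephron progenitor-like nuclei.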
